A study of Homo sapiens with 16 samples.

Results

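MeWo and A101D are human melanoma cell lines that were compared here in the libraries titled replicates 5 to 8, which are 4 libraries of each line, or 8 of the 16 libraries in the series. The labels describe A101D by methionine dependence and MeWo by methionine independence, a term for growth when homocysteine replaces methionine in the medium. Each line is a single culture line, and no further line of either kind was measured, so the line and its methionine dependence cannot be told apart. No genetic change, drug or time point is named in the labels of either line. Media of 2 kinds are described in the growth protocol, one holding 200 µM methionine and the other holding 200 µM homocysteine in its place. Cystine was supplied in both media. It is not stated which medium any of the 8 libraries had, nor whether the replicates were separate cultures, so p-values measure the spread between these libraries, which may be technical.

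These 8 libraries were chosen by the measured level of MAT2A, the enzyme that makes the methyl donor S-adenosylmethionine from methionine. MAT2A (ENSG00000168906, chromosome 2, 85539165 to 85545280, GRCh38) had 607, 602, 607 and 590 counts per 1000000 (CPM) in A101D replicates 5 to 8. In MeWo replicates 5 to 8 it had 654, 670, 661 and 608 CPM. The libraries left out lay between 137 and 143 CPM in A101D and between 179 and 189 CPM in MeWo, so the nearest library outside the choice was at 189 CPM and the lowest inside it at 590 CPM. These levels are given as a description, and no p-value of MAT2A is used as a result.

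In vertebrate cells methionine is turned into S-adenosylmethionine, which gives up its methyl group to become S-adenosylhomocysteine and then homocysteine. Homocysteine is made back into methionine by methionine synthase with a folate methyl group and a cobalamin cofactor, or is drained through cystathionine to cysteine. A salvage route led by MTAP returns the methylthio group that is released when polyamines are made. Melanoma cells are further told apart by how much of the melanocyte programme under the transcription factor MITF they keep, and by genes of a dedifferentiated, invasive state.

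**Figure D1:**
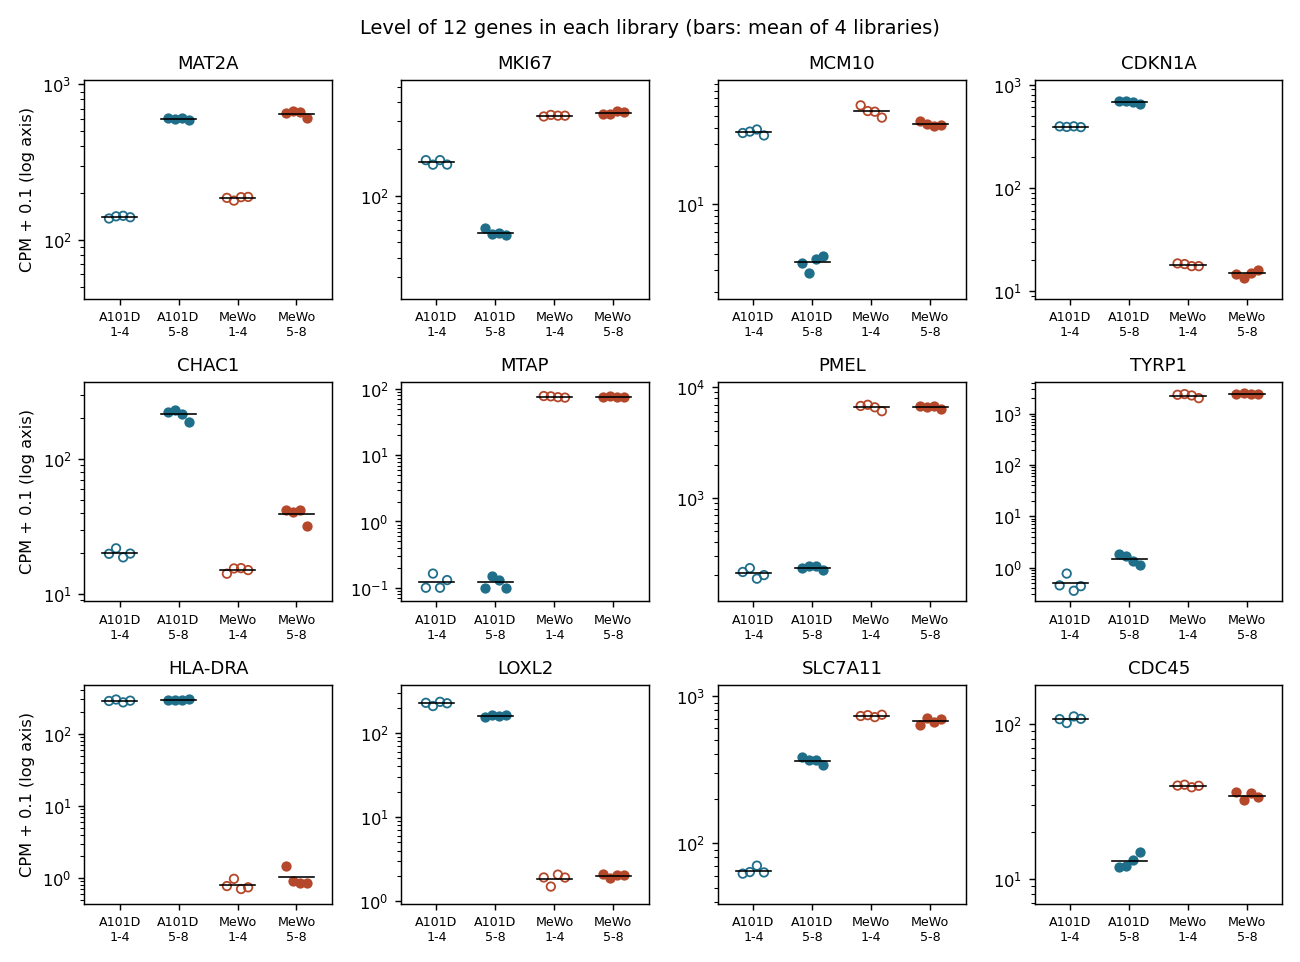
Level of 12 genes in each of the 16 libraries, as CPM + 0.1 on a log axis. Blue points are A101D and red points MeWo, open for replicates 1 to 4 and filled for replicates 5 to 8, and each bar is the mean of 4 libraries. MAT2A chose the filled libraries, in which MKI67 lay between 55.7 and 61.6 CPM in A101D and between 333 and 347 CPM in MeWo.

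The A101D libraries held 30950333 to 36402609 counts and those of MeWo 31217443 to 38722489. Mitochondrial genes took 1.93% to 2.33% of the counts in A101D and 1.28% to 1.39% in MeWo, and at least 1 count was found for 34020 to 34607 genes and for 30066 to 31433 genes. The spread within a line was small: over 10130 genes of at least 10 CPM, the median SD of log2 CPM between libraries was 0.0562 in A101D and 0.0588 in MeWo. Both lines expressed the melanocytic markers SOX10, at 361 ± 10.2 and 454 ± 25.8 CPM, and MITF, at 146 ± 7.08 and 552 ± 16.6 CPM (A101D then MeWo, mean ± SD, n = 4 per line). TYR, by contrast, was at 1.62 ± 0.159 CPM in A101D. Of 177 named genes, 43 share at least 100 exon bases with another gene of at least 1 CPM, and since the strand setting of the counting is not given in the sources used here their counts are less certain. The largest parts shared with 1 partner were 44.6% of the exon bases in ASNS, 40.5% in DUSP6, 39.1% in TYMS and 37% in CCNE2. Next came 27.2% in DDIT3, 26.5% in IER3 and 22.3% in NGFR.

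Differences between the lines were common. Of 20418 genes tested with limma, 17390 (85.2%) were called at an adjusted p under 0.05, of which 8278 (40.5% of the genes tested) were higher and 9112 (44.6%) lower in MeWo. The call and a change of more than 2-fold together held for 8933 genes (43.8%), 3750 of them above and 5183 below A101D. No overlap between the libraries of both lines was found for 16419 genes (80.4%). A change of more than 16-fold was called for 389 genes higher and 1750 genes lower in MeWo. With these shares as the background, a call alone says little about a gene, and the sizes and directions below carry the comparison. Where a list is counted below, background means 40.5% higher and 44.6% lower, the shares over all genes tested. The median log2 fold change over all genes tested, MeWo minus A101D, was -0.047. Of all calls, 47.6% were higher in MeWo, and with upper-quartile factors over all genes with a count this share was 60.9%, since those factors moved the median log2 fold change by 0.367.

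Among protein-coding genes of at least 10 CPM, most of those furthest above A101D in MeWo were nearly without counts in A101D (TYRP1 and MTAP, also in this set, are described further on). MME, the cell-surface peptidase neprilysin (chromosome 3, 155024124 to 155183729), had 444, 455, 430 and 440 CPM in MeWo and 2 counts over the 4 A101D libraries (ratio 31882, 95% interval from 8826 to 263268). PAEP, a secreted lipocalin-family protein, had 433 ± 14.99 CPM against 27 counts in A101D in all (ratio 2307, 95% interval from 1585 to 3500). PNLDC1, a 3′ trimming exonuclease of small germline RNAs, reached 68.0 ± 2.31 CPM in MeWo with 4 counts in A101D. No A101D library had a count for ROBO2, an axon guidance receptor, for MGMT, which repairs alkylated guanine in DNA, or for the homeobox gene IRX2. With the A101D sum set at a floor of 3 counts, ROBO2 was at least 2049-fold, MGMT at least 1002-fold and IRX2 at least 983.1-fold higher in MeWo. Such intervals and floors reflect counting error alone.

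The opposite pattern was found for genes that A101D expressed and MeWo did not. ZBED10P (chromosome 7, 150329789 to 150332721, a gene that GENCODE v29 lists as protein-coding under a pseudogene symbol) had 135 ± 3.28 CPM in A101D, while no MeWo library had a count (at least 6324-fold lower). TNFRSF10D, a decoy receptor for the death ligand TRAIL, had 118, 96.3, 100.8 and 85.8 CPM in A101D and none in MeWo, at least 4683-fold lower. SULF1, an extracellular sulfatase of heparan sulfate, and the adhesion protein CADM3 also lacked counts in every MeWo library, at least 2852-fold and at least 2935-fold lower. NLGN4X, a neuroligin on chromosome X, had 110 ± 1.46 CPM in A101D and 2 counts summed over MeWo (ratio 7763, 95% interval from 2149 to 64108). HLA-DRB5, HLA-DQB1 and PASD1 complete this set and belong to groups described further on.

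Where both lines kept at least 20 CPM, the differences were smaller but still wide. SLC16A6, a monocarboxylate transporter, was highest in MeWo relative to A101D, at 1275 ± 34.2 CPM against 22.3 ± 2.37 in A101D, a log2 fold change of 5.84 ± 0.054 (SE) with an adjusted p of 2.47e-29. KCNAB2, a potassium channel subunit, was 20.5-fold and SPHK1, which makes sphingosine 1-phosphate, 15.01-fold higher in MeWo. The thymidine kinase TK1 and the linker histone H1-5, both tied to DNA synthesis, were 15.03-fold and 15.9-fold higher. In the other direction stood GDF15, a secreted stress hormone (27.6-fold lower in MeWo), the serine protease PRSS23 (15.5-fold), the semaphorin receptor NRP1 (15-fold), the intermediate filament protein SYNM (14.9-fold), COL16A1 (14.4-fold) and the zinc exporter SLC30A1 (12-fold). PRSS23 shares 11.9% of its exon bases with FZD4 on the opposite strand, and FZD4 was also lower in MeWo.

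**Figure D2:**
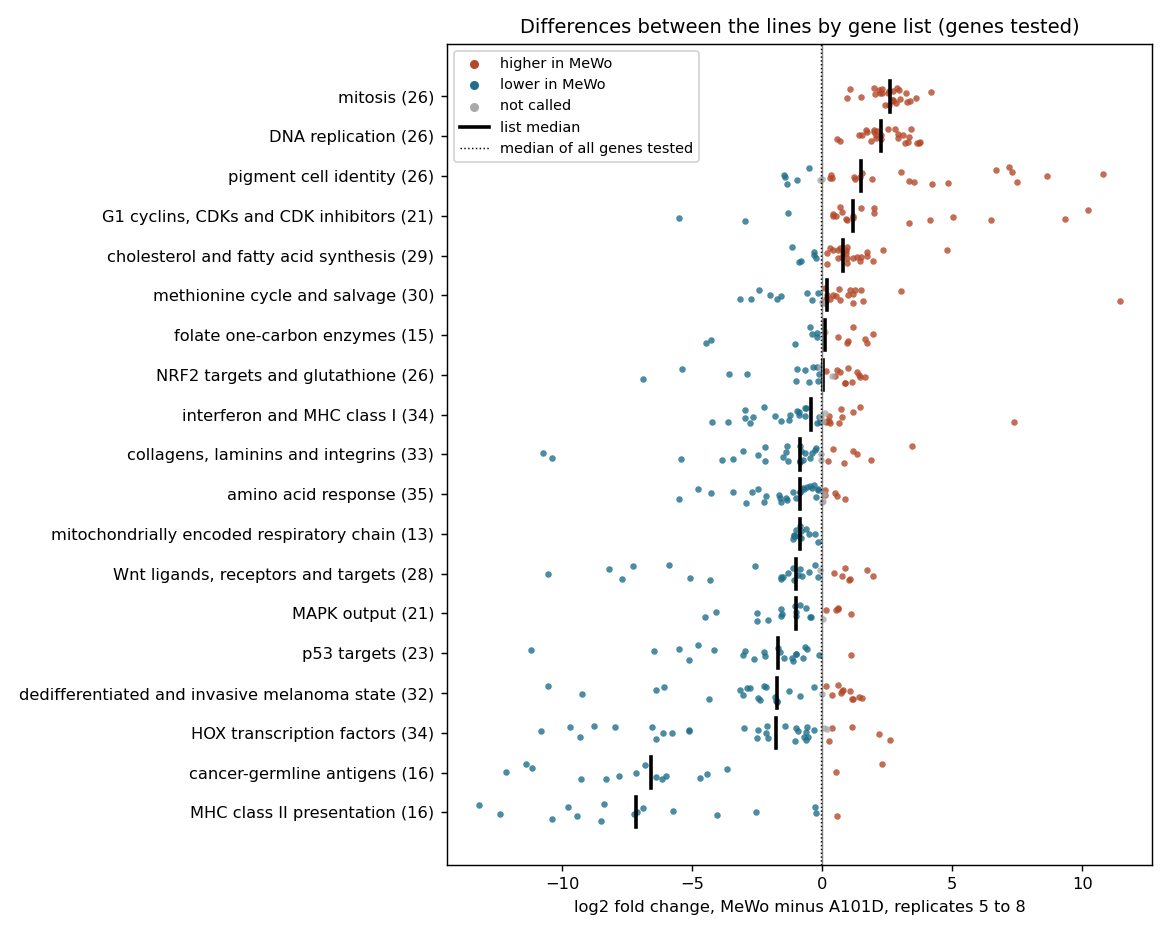
Log2 fold change (MeWo minus A101D, replicates 5 to 8) of each gene tested, in 19 gene lists. Each point is a gene, red where it was called higher in MeWo, blue where lower and grey where not called, the black bar is the list median and the dotted line the median of all genes tested, -0.047. All points of DNA replication and mitosis lie right of 0, and nearly all of MHC class II presentation lie left of it.

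Both lines are taken as proliferating in the choice of these libraries, and the RNA levels of cell cycle genes in A101D went against this. Every one of 26 DNA replication genes and of 26 mitosis genes was lower in A101D than in MeWo (52 of 52, against 40.5% of all genes tested called in that direction), with median log2 fold changes of 2.26 and 2.61. MKI67, the gene of the Ki-67 antigen of cycling cells (chromosome 10, 128096659 to 128126385), had 61.6, 56.8, 57.2 and 55.7 CPM in A101D and 333, 333, 347 and 346 CPM in MeWo. The lines did not overlap (log2 fold change 2.56 ± 0.038 SE, adjusted p 9.70e-26, limma). In replicates 1 to 4 the same gene lay between 158 and 169 CPM in A101D and between 323 and 330 CPM in MeWo. RNA levels do not measure division, and the low values do not show that A101D had stopped dividing.

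Within the replication list the size of the difference varied. MCM10, which loads factors at replication origins, had 3.30, 2.71, 3.55 and 3.75 CPM in A101D against 45.6, 42.9, 42.0 and 42.5 in MeWo (13.1-fold). RRM2, the regulated subunit of ribonucleotide reductase, was 13.6-fold, the licensing factor CDT1 12.4-fold and CLSPN, a mediator of the fork checkpoint, 10.6-fold higher in MeWo. MCM7, a helicase subunit, had 81.8 ± 2.34 against 302 ± 18.5 CPM (3.68-fold). CDC45, which completes that helicase, differed least among these named members, at 12.97 ± 1.35 against 34.4 ± 1.85 CPM (log2 fold change 1.40). TYMS, which makes thymidylate, was 3.31-fold higher in MeWo, but 39.1% of its exon bases are shared with ENOSF1 on the opposite strand. Over the list, the summed level ran from 575 to 600.8 CPM in A101D but from 2501 to 2716 CPM in MeWo.

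Promoters of replication genes are known for sites of the E2F factors, and a few such stretches are shown because the genes they precede moved together. The words TTTCCCGC, TTTGGCGC, TTTCGCGC and TTTGCCGC were searched on both strands in the 250 bases before the start, in RefSeq promoters (GRCh38.p14). Of the 26 listed genes, 23 had a promoter in the table and 9 of these held a match (39.1%), while 761 of all 27305 promoters did (2.79%). The same words were found in 3 of 18 promoters of the p53 list (16.7%), whose members were mostly lower in MeWo, and in 2 of 21 sterol promoters (9.52%). A match is a string of letters and not a measured binding site, and genes without one were higher in MeWo as well. The stretches below lie at chr16:88803734-88803781 on the plus strand, chr7:100101398-100101426 on the minus strand and chr18:657594-657641 on the plus strand, with 1 match in capitals (the promoter of MCM7 holds 2).
CDT1: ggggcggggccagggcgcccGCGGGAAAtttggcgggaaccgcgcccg
MCM7: cggtcacgtggggggcgacgTTTCGCGCc
TYMS: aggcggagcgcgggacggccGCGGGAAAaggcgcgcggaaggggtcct

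Kinases, cyclins and chromosome proteins of mitosis were all higher in MeWo. AURKB, a kinase of the chromosomal passenger complex, was 18.3-fold higher in MeWo (5.94 ± 0.700 against 108 ± 3.91 CPM), CCNA2 (cyclin A2) 12.05-fold and BIRC5 (survivin) 10.5-fold. TOP2A, the topoisomerase that untangles replicated chromosomes, had 51.1, 52.3, 56.5 and 54.2 CPM in A101D and 510, 522, 515 and 519 CPM in MeWo. CENPF, a kinetochore protein, and HJURP, which is outside the list and is the chaperone of the centromeric histone, were 4.04-fold and 2.65-fold higher. FOXM1, a transcription factor of this programme, differed less, at 53.1 ± 1.40 against 103 ± 3.75 CPM (1.94-fold). MYBL2, another such factor and not on the list, was 3.17-fold higher in MeWo here, whereas in replicates 1 to 4 its log2 fold change was -0.91.

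Promoters of mitosis genes are known for a short element called the CHR, searched here as TTTGAA or TTCGAA on both strands. It was present in 11 of the 21 mitosis promoters in the table (52.4%) and in 14.6% of all promoters. It was also in 5 of 14 MHC class II promoters (35.7%), a list lower in MeWo, and in 5 of 19 pigment promoters (26.3%). The examples are chr10:128126427-128126472 on the minus strand for MKI67 and chr17:40418022-40418067 on the minus strand for TOP2A. Each promoter holds 2 matches, of which 1 is in capitals, and the other of MKI67 lies near the left end of its stretch in lower case.
MKI67: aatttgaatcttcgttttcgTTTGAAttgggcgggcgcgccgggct
TOP2A: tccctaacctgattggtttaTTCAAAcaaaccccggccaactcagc

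As a mean log2 CPM per library, less the mean over all 16 libraries, the mitosis list scored -1.80 to -1.68 in A101D replicates 5 to 8 and 0.798 to 0.816 in MeWo replicates 5 to 8. In replicates 1 to 4 it scored 0.085 to 0.146 in A101D and 0.725 to 0.842 in MeWo. The 4 A101D libraries described here therefore lay apart from the other 12, while the MeWo libraries of both sets lay close together. The sets of replicates were told apart by a measured level and were not tested against each other.

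Of 21 tested genes of G1 control, 18 were higher and 3 lower in MeWo (background 40.5% and 44.6%, median log2 fold change 1.17). E2F2, an activator of replication genes, was at 0.595 ± 0.206 CPM in A101D and 52.5 ± 3.70 CPM in MeWo (90.3-fold), and CCNE2 (cyclin E2) was 17.9-fold higher, though 37% of its exon bases are shared with INTS8. CCND1 (cyclin D1), the partner of CDK4 and CDK6, was 1.45-fold higher in MeWo. The 3 exceptions were CDK6 (336 ± 7.97 against 135 ± 3.84 CPM), the p53 inhibitor MDM2 and the CDK inhibitor CDKN1A. CDKN1A, the p21 protein that halts the cycle downstream of p53 (chromosome 6, 36676460 to 36687339), had 689, 695, 679 and 649 CPM in A101D. MeWo held 14.7, 13.5, 15.1 and 16.1 CPM (45.6-fold lower, log2 fold change -5.51 ± 0.053 SE, adjusted p 4.16e-29, limma). Outside the list, EZH2, a histone methyltransferase that follows the cell cycle in many cells, was 1.54-fold higher in MeWo.

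p53 is a transcription factor that is stabilised by damage and other stress and then drives genes of arrest, repair and death. Of 23 genes in the p53 list, 22 were lower in MeWo and 1 was higher, against 44.6% and 40.5% of all genes tested. Among the targets, SPATA18 had 50.1 ± 2.35 CPM in A101D and 2 counts summed over MeWo (ratio 3542, 95% interval from 980.1 to 29252). The death receptor FAS was 87.7-fold, the antiproliferative gene BTG2 35.4-fold, MDM2 7.76-fold and the TRAIL receptor TNFRSF10B 3.22-fold lower in MeWo. MDM2 stood at 718, 716, 716 and 704 CPM in A101D against 88.3 to 95.8 CPM in MeWo. The median of the list was -1.69 in replicates 5 to 8 and -1.69 in replicates 1 to 4.

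Genes of the methionine cycle and its salvage did not share a direction. Of 30 tested members, 19 were higher in MeWo, 9 were lower and 2 were not called (background 40.5% higher and 44.6% lower). MAT2A, which chose the libraries, was among those higher, and its call is no result. The median log2 fold change, which includes MAT2A, was 0.17. Differences were small for MTR and AHCY: MTR, methionine synthase, had 121, 120, 125 and 129 CPM in A101D and 107, 112, 112 and 111 CPM in MeWo. This difference of -0.16 in log2 was lower in MeWo with TMM scaling and higher with upper-quartile factors over all genes with a count. AHCY, which splits S-adenosylhomocysteine, had 232 ± 11.5 and 254 ± 17.8 CPM with overlapping libraries (log2 fold change 0.13, adjusted p 0.013, limma), and its call was lost without A101D replicate 5 or MeWo replicate 5.

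MMACHC, which trims and delivers cobalamin to methionine synthase (chromosome 1, 45500053 to 45513382), differed far more than the synthase it serves. It had 2.43, 2.29, 2.38 and 2.08 CPM in A101D and 18.6, 19.9, 17.3 and 18.3 CPM in MeWo (8.05-fold higher, log2 fold change 3.01 ± 0.102 SE, adjusted p 6.53e-19, limma). MMACHC shares 7.16% of its exon bases with PRDX1 on the opposite strand. PRDX1 had 216.3 CPM in A101D and 218.6 CPM in MeWo, so the low level of MMACHC in A101D is less certain. CBS, which commits homocysteine to cysteine synthesis, was lower in MeWo, with 16.4, 17.0, 15.9 and 16.6 CPM in A101D and 1.78, 1.83, 1.55 and 2.05 CPM in MeWo (9.08-fold lower). NNMT, which spends S-adenosylmethionine on nicotinamide, was 4.07-fold lower in MeWo (94.5 ± 3.13 against 23.3 ± 1.33 CPM). GNMT, another such consumer, was near the detection limit in both lines, with 52 counts over the A101D libraries and 8 over those of MeWo. Among polyamine genes, SMS (spermine synthase) was 2.78-fold and ODC1 1.22-fold higher in MeWo, while AMD1 overlapped between the lines (199 ± 23.05 and 224 ± 6.43 CPM).

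MTAP, the first enzyme of methionine salvage (chromosome 9, 21802543 to 21937651), had 0, 2, 1 and 0 counts in the A101D libraries and 2336, 2855, 2614 and 3050 counts in MeWo. The ratio was 3697 (95% interval 1265 to 17928). The neighbouring CDK inhibitor genes CDKN2A (21967753 to 21995301) and CDKN2B (22002903 to 22009363) had no count in any A101D library, and 279 to 348 and 547 to 638 counts in MeWo, at least 432.1-fold and 796.2-fold higher. On both sides expression in A101D was present: toward the telomere KLHL9 had 2215 to 2660 counts and FOCAD 1465 to 1772, and toward the centromere DMRTA1 had 209 to 267. Between KLHL9 and MTAP lie interferon genes with few or no counts in A101D, such as IFNE with 6 to 7 per library. Among protein-coding genes, MTAP, CDKN2A and CDKN2B thus lie in a row within a stretch bounded by expressed genes. Replicates 1 to 4 gave the same picture, with at most 0.0636 CPM of MTAP in A101D. The stretch was not wholly without counts in A101D. CDKN2B-AS1, not among these protein-coding genes, shares 341 exon bases with CDKN2A on the opposite strand. It had a mean of 0.3096 CPM in A101D and 3.635 CPM in MeWo. RNA counts do not show whether the DNA is present.

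**Figure D3:**
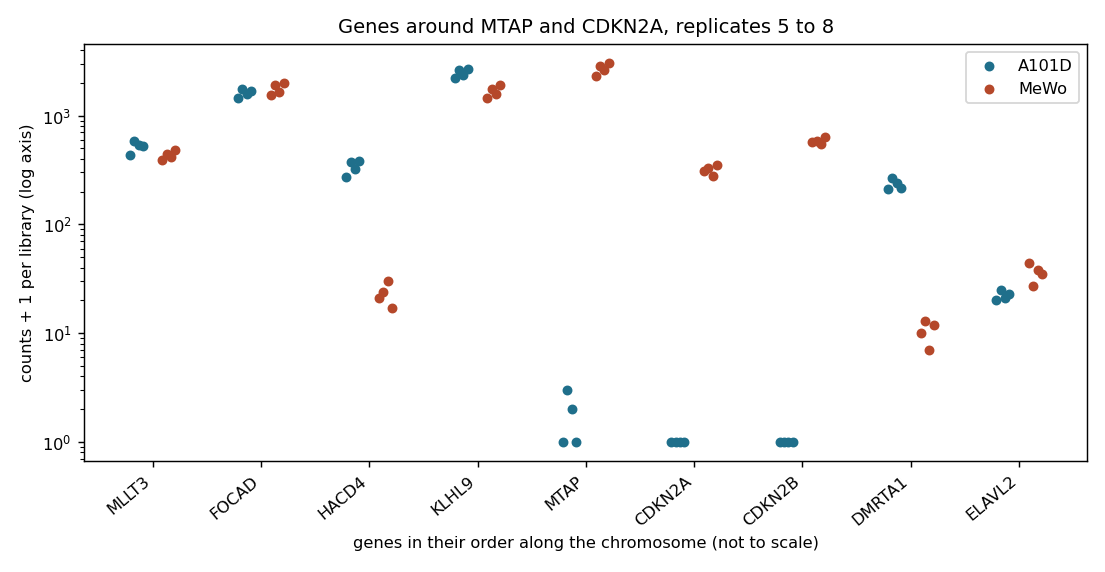
Counts + 1 per library (log axis) of the protein-coding genes with at least 10 counts in a library around MTAP and CDKN2A, in their order along the chromosome. Other genes of this stretch are not shown. Blue points are the 4 A101D libraries and red points the 4 MeWo libraries of replicates 5 to 8. CDKN2A and CDKN2B are at 0 counts in all 4 A101D libraries and MTAP at 0 to 2.

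Folate enzymes, which supply the methyl group for methionine synthase and the carbon of thymidylate and purines, were divided. Of 15 genes, 7 were higher, 7 lower and 1 not called (background 40.5% higher and 44.6% lower, median log2 fold change 0.11). Higher in MeWo was the cytosolic trifunctional enzyme MTHFD1 (40.6 ± 1.20 against 126 ± 4.35 CPM, 3.09-fold). Lower in MeWo were the formate-releasing dehydrogenases ALDH1L2 of the mitochondrion (90.1 ± 6.57 against 4.64 ± 0.294 CPM, 19.3-fold) and ALDH1L1 of the cytosol, which had 169 counts in A101D and 8 in MeWo. The mitochondrial MTHFD2 was 1.40-fold lower in MeWo. SHMT2, at 443 ± 17.1 and 382 ± 16.04 CPM, was lower in MeWo with TMM scaling and higher with upper-quartile factors over all genes with a count.

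The amino acid response is the programme by which ATF4 raises genes for amino acid synthesis, uptake and stress signalling when amino acids run short. Of 35 genes, 27 were lower in MeWo, 5 higher and 3 not called (background 44.6% and 40.5%, median log2 fold change -0.86). CHAC1, which degrades glutathione (chromosome 15, 40952962 to 40956519), had 223, 232, 217 and 188 CPM in A101D and 41.7, 40.3, 41.6 and 31.9 CPM in MeWo (5.57-fold lower, adjusted p 2.69e-12, limma). ATF4 RNA was 1.48-fold lower in MeWo, at 533 ± 26.4 against 789 ± 16.5 CPM, although ATF4 is mainly controlled in translation. The secreted factors STC2 and GDF15 were 10.8-fold and 27.6-fold lower, and FGF21 had 165 counts in A101D and 2 in MeWo (ratio 80.75, 95% interval from 22 to 672.4). The serine synthesis enzyme PSAT1 was 2.996-fold lower in MeWo, while PHGDH, which starts that route, overlapped between the lines at 223 ± 2.80 and 238 ± 11.9 CPM.

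Apart from PHGDH, the members called higher in MeWo were transporters. SLC7A11, which imports cystine in exchange for glutamate, had 383, 367, 367 and 337 CPM in A101D and 634, 706, 660 and 691 CPM in MeWo (1.85-fold higher). Its partner chain SLC3A2 and the leucine carrier SLC7A5 were 1.46-fold and 1.40-fold higher in MeWo. ASNS, asparagine synthetase, was low in both lines (10.03 ± 0.569 and 8.83 ± 0.597 CPM). Its log2 fold change of -0.18 became 0.19 with upper-quartile factors over all genes with a count, and 44.6% of its exon bases are shared with a same-strand transcript, so reads may have been left out or assigned elsewhere. TRIB3, an inhibitor of this response, was 1.83-fold lower in MeWo (210 ± 12.5 against 115 ± 9.21 CPM), and DDIT3 1.33-fold lower. Both had the opposite sign in replicates 1 to 4, where TRIB3 lay between 38.5 and 42.3 CPM in A101D and between 68.9 and 77.7 CPM in MeWo.

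Pigment cell genes were mostly higher in MeWo. Of 26 genes, 19 were higher, 5 lower and 2 not called (background 40.5% higher and 44.6% lower, median log2 fold change 1.5). MITF, the regulator of melanocyte genes, was 3.79-fold higher in MeWo, and SOX10, which acts above it, 1.26-fold. PMEL, the fibril protein of the melanosome (chromosome 12, 55954105 to 55973317), had 235, 242, 243 and 223 CPM in A101D and 6852, 6640, 6802 and 6381 CPM in MeWo (28.3-fold, adjusted p 2.44e-31, limma). Per length, PMEL stood at 6264 transcripts per 1000000 (TPM) in MeWo, above TYRP1 at 2412 TPM and TYR at 350.8 TPM. TYR, the tyrosinase that starts melanin synthesis, had 1.38, 1.68, 1.72 and 1.70 CPM in A101D against 281 to 299 CPM in MeWo (177-fold), and TYRP1, an enzyme further along, had 1.05 to 1.71 against 2410 to 2576 CPM.

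The receptor KIT, needed for melanocyte survival, had 28 counts over the A101D libraries and 11536 over those of MeWo (ratio 420.9, 95% interval from 291.1 to 633.7). The channel TRPM1 and MLANA, a melanosome antigen, were 156-fold and 10.05-fold higher in MeWo. The exceptions included DCT, an enzyme of the same pigment pathway, at 1311 ± 60.3 CPM in A101D and 518 ± 23.6 CPM in MeWo, the receptor ERBB3 (2.72-fold lower in MeWo), the survival gene BCL2A1 (2.80-fold lower) and LEF1 (1.41-fold lower). S100B, a neural crest marker outside this list, was 3.95-fold lower in MeWo. A101D thus held low TYR, TYRP1 and KIT beside high DCT, ERBB3 and S100B.

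MITF is known to bind an element called the M-box, searched as TCATGTG on both strands of the 250 bases before the start. A match was present in 5 of the 19 pigment promoters in the table (26.3%) and in 2.58% of all promoters. The examples are chr11:89177750-89177796 on the plus strand for TYR, chr9:12693220-12693266 on the plus strand for TYRP1 and chr15:79971197-79971242 on the minus strand for BCL2A1. BCL2A1 is shown because it has the same letters and the opposite difference between the lines.
TYR: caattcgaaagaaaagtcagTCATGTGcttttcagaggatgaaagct
TYRP1: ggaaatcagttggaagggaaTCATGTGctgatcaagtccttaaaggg
BCL2A1: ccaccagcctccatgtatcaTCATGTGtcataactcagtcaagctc

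Genes of the dedifferentiated, invasive state were mostly higher in A101D. Of 32 tested, 20 were lower in MeWo, 11 higher and 1 not called (background 44.6% and 40.5%, median log2 fold change -1.73). WNT5A, a ligand tied to invasion, had 61.4, 62.5, 66.0 and 68.4 CPM in A101D and 8 counts over the MeWo libraries (ratio 1139, 95% interval from 577.9 to 2640). The transcription factor ZEB1 was without counts in every MeWo library, at least 403-fold lower, and the collagen crosslinker LOXL2 was 83.5-fold lower. WNT5A and ZEB1 passed the filter on low counts through A101D alone, so the count and the median partly reflect the filter. EGFR, at 21.7 ± 1.80 against 2.94 ± 0.336 CPM, and NGFR, at 756 ± 15.1 against 312 ± 12.2 CPM, were lower in MeWo too. The receptor kinase AXL went against the list, with 117, 118, 120 and 132 CPM in A101D and 375, 325, 350 and 372 CPM in MeWo (2.92-fold higher). VIM (vimentin) and MMP2, a matrix protease, were 2.20-fold and 2.69-fold higher in MeWo.

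Adhesion and matrix genes were lower in MeWo for 24 of 33, higher for 7 and not called for 2. The background was 44.6% lower and 40.5% higher, and the list median log2 fold change was -0.86. COL1A2, a chain of type I collagen, had 565, 565, 587 and 630 CPM in A101D and 47 counts over the MeWo libraries (ratio 1762, 95% interval from 1325 to 2398). COL1A1, the other chain of that collagen, was low in both lines, at 0.837 ± 0.129 and 1.94 ± 0.190 CPM, and was 2.305-fold higher in MeWo. COL6A2 stood at 106 ± 2.91 CPM in A101D, with 10 counts summed over MeWo. The glycoproteins FN1 (fibronectin), THBS1 and TNC were 8.15-fold, 5.59-fold and 4.70-fold lower in MeWo, with THBS1 at 7001 to 7995 CPM in A101D. The laminin chain LAMB1 was 2.52-fold lower and LAMA1 2.52-fold higher in MeWo, so laminin chains did not move as a block. Integrin ITGA9 was 43.2-fold lower in MeWo, while the shared beta chain ITGB1 was at 532 ± 7.89 and 614 ± 11.2 CPM.

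Of 28 tested Wnt genes, 20 were lower in MeWo, 7 higher and 1 not called (background 44.6% and 40.5%, median log2 fold change -0.99). Of the 36 listed, 8 were below the filter on low counts. WNT5A, nearly silent in MeWo, passed it through A101D alone, so the count and the median partly reflect the filter. The secreted antagonists SFRP1 (232 ± 11.3 against 1.13 ± 0.235 CPM, 209-fold lower) and DKK3 (154-fold lower) went with the ligands WNT5A and WNT5B, whereas the antagonist DKK1 was 1.68-fold higher in MeWo. AXIN2, a feedback gene that canonical Wnt signalling induces, was low in both lines and 3.83-fold higher in MeWo (2.06 ± 0.247 against 7.91 ± 0.561 CPM).

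MAPK output genes, which report the activity of the ERK kinase cascade, were lower in MeWo for 15 of 21. Another 5 were higher and 1 was not called (background 44.6% lower and 40.5% higher, median log2 fold change -1.01). The ERK phosphatase DUSP6 had 451, 464, 437 and 391 CPM in A101D against 142 to 146 in MeWo (3.02-fold lower), and the feedback inhibitors SPRY4 and SPRED3 were 4.20-fold and 22.7-fold lower. PHLDA1, the most abundant of them, was 2.997-fold lower, IER3 5.68-fold lower and the receptor EPHA2 16.8-fold lower. NF1, a brake on RAS, was itself 5.67-fold lower in MeWo (127 ± 5.49 against 22.4 ± 1.40 CPM).

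MHC class II presentation had the lowest median of the 19 lists. Of 16 tested genes, 15 were lower in MeWo and 1 was higher (background 44.6% and 40.5%, median log2 fold change -7.17). Members without a count in MeWo passed the filter on low counts through A101D alone. HLA-DRA, the invariant DR chain (chromosome 6, 32439842 to 32445046), had 290.1, 294, 297 and 300 CPM in A101D and 1.36, 0.803, 0.761 and 0.751 CPM in MeWo (333-fold lower). CD74, the invariant chain that fills the class II groove, was 138-fold lower. No MeWo library had a count for HLA-DQA1 or HLA-DQB1, at least 593.8-fold and 3595-fold lower, and HLA-DRB5 had a single count. HLA-DRB1 and HLA-DRB5 are close copies, so their counts are uncertain against each other.

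CIITA, the master activator of class II genes, differed less than HLA-DRA and CD74: 50.6, 51.8, 55.1 and 56.9 CPM in A101D against 9.56, 9.08, 9.40 and 9.14 CPM in MeWo (5.76-fold). RFX5, a subunit of the complex that recruits CIITA to class II promoters, was close between the lines, at 84.8 ± 4.07 and 69.7 ± 2.45 CPM. Its log2 fold change of -0.28 became 0.08 with upper-quartile factors over all genes with a count. In MeWo, CIITA at 1.64 TPM stood beside class II genes between 0 and 3.24 TPM among those named here. CIITA shares 11.6% of its exon bases with DEXI on the opposite strand. DEXI had 9.43 CPM in A101D and 13.6 CPM in MeWo, so the level of CIITA in MeWo is less certain.

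Interferon and MHC class I genes were mixed. In MeWo 20 of 34 were lower, 11 higher and 3 not called (background 44.6% and 40.5%, median log2 fold change -0.41). HLA-C, a class I heavy chain, was 7.77-fold lower in MeWo, the peptide trimmer ERAP2 19.0-fold and the immunoproteasome subunit PSMB9 7.87-fold. The class I light chain B2M overlapped between the lines (506 ± 13.8 and 478 ± 12.4 CPM), with a log2 fold change of -0.08 that became 0.28 with upper-quartile factors over all genes with a count. Among induced genes, IFI27 had 46 counts in A101D and 7828 in MeWo (ratio 173.9, 95% interval from 130.2 to 237.7), whereas OAS2 was 12.5-fold lower.

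Cancer-germline genes, normally silent outside the germline, were another list with wide differences. Of 16 tested, 14 were lower in MeWo and 2 higher (background 44.6% and 40.5%, median log2 fold change -6.60). MAGEA1 had 133, 134, 132 and 133 CPM in A101D and 32 counts over the MeWo libraries, MAGEC2 was 111-fold lower, and MAGEA10 had 1 count in MeWo. PAGE5 stood at 99.0 ± 3.22 CPM in A101D, with 6 counts summed over MeWo, and PASD1 had 64.5 ± 1.85 CPM in A101D without a count in any MeWo library (at least 3033-fold lower). PRAME was expressed in both lines (317 ± 10.9 and 451 ± 12.7 CPM), and MAGEC1, low in both, was 4.97-fold higher in MeWo. Many of these genes have close copies on chromosome X, so their counts are uncertain. Of the 24 listed, 8 were below the filter on low counts. Members nearly silent in MeWo passed it through A101D alone, so the count and the median partly reflect the filter.

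HOX genes, which record position along the body axis, were lower in MeWo for 27 of 34, higher for 5 and not called for 2. The background was 44.6% lower and 40.5% higher, and the list median log2 fold change was -1.76. Named HOXB genes were nearly without counts in MeWo: HOXB2 had 32.4, 35.5, 35.3 and 33.0 CPM in A101D and 1 count in MeWo, HOXB3 had 19.6 ± 0.909 CPM and 4 counts, and HOXB4 15.4 ± 0.666 CPM and 1 count. HOXC12 had 1 count in MeWo as well, while HOXC10 of the same cluster differed by 1.48-fold. Of the 37 listed, 3 were below the filter on low counts. HOX genes nearly silent in MeWo passed it through A101D alone, so the count and the median partly reflect the filter. HOXA10 was the largest exception, 6.16-fold higher in MeWo (1.12 ± 0.0522 against 7.004 ± 0.311 CPM). In the MHC class II, germline, G1 and dedifferentiated lists, the only ones with members that had no count in a line, placing those members at their bound left the median where it was. Each bound was itself beyond its list median, so the median could not move and this is no support for it.

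Cholesterol and fatty acid genes were mostly higher in MeWo, with 23 of 29 higher and 6 lower (background 40.5% and 44.6%). Their median log2 fold change was 0.80, and 0.03 in replicates 1 to 4. SREBF2, the regulator of cholesterol synthesis, had 59.9, 63.5, 64.1 and 69.2 CPM in A101D and 117, 107, 114 and 109 CPM in MeWo (1.74-fold). Its target INSIG1, which holds the regulator back, was 3.28-fold higher. ACAT2, MVD and DHCR7, enzymes at the start, middle and end of the route, were 5.03-fold, 3.84-fold and 3.31-fold higher in MeWo. SC5D was 2.26-fold lower, and ACLY, which makes cytosolic acetyl-CoA, 1.52-fold higher. FASN, fatty acid synthase, had 348 ± 6.94 and 295 ± 25.2 CPM, and its log2 fold change of -0.24 became 0.12 with upper-quartile factors over all genes with a count.

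NRF2 targets and glutathione genes were evenly split, with 12 of 26 higher, 12 lower and 2 not called. The background was 40.5% higher and 44.6% lower, and the list median log2 fold change was 0.02. NFE2L2, the gene of NRF2, was 1.97-fold lower in MeWo, whereas its targets NQO1 and FTL were 1.97-fold and 1.86-fold higher and TXNRD1 was 1.44-fold lower. ABCC2, a conjugate exporter, had 88.2 ± 2.58 CPM in A101D and 2.08 ± 0.310 CPM in MeWo (42.1-fold lower). The aldo-keto reductase AKR1B10 had 1177 counts in A101D and 11 in MeWo. AKR1C1 and AKR1C3, which are close copies, had 176 and 175 counts in A101D against 22 and 15.

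All 13 mitochondrially encoded respiratory chain genes were lower in MeWo (background 44.6%, median log2 fold change -0.87). The mitochondrial share of all counts, which includes these genes and so is no separate observation, was lower in MeWo. MT-CO1, a subunit of cytochrome oxidase, had 4730, 4346, 4741 and 4401 CPM in A101D and 2288, 2733, 2444 and 2486 CPM in MeWo. MT-ATP8 differed most (2.18-fold) and MT-ND6, the member read from the other strand, least: its libraries overlapped, and its log2 fold change of -0.15 became 0.21 with upper-quartile factors over all genes with a count. The part of RNA handling in this list was not tested.

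Many markers of other cell types were below the filter on low counts. Of 9 leukocyte markers only 2 passed the filter on low counts, with a summed level of 4.81 to 5.08 CPM in A101D and 1.39 to 2.10 in MeWo. No erythroid marker passed it, and HBA2, HBB and HBD had no count. The endothelial list summed to 144 to 155 CPM in A101D, most of it KDR, a VEGF receptor (121 ± 3.18 against 1.49 ± 0.158 CPM), and to 3.13 to 3.57 CPM in MeWo, with EMCN, ERG and CLDN5 below the filter. All 5 endothelial markers tested were lower in MeWo by over 2-fold, 4 of them without overlap, against 5183 of all 20418 genes tested. The filter asks for 4 of the 8 libraries, so A101D alone could pass a marker, and this count says little about the list. The fibroblast list summed to between 5.44 and 6.31 CPM in A101D and to between 77.3 and 85.7 CPM in MeWo, where most of it was LUM, a matrix proteoglycan (2.05 ± 0.414 against 74.9 ± 3.73 CPM), with POSTN and DPT below the filter. Keratin and other epithelial markers summed to between 39.4 and 42.5 CPM in A101D and to between 21.8 and 27.4 CPM in MeWo, mostly KRT10. The part of these genes in the matrix and invasive-state differences was not tested.

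**Figure D4:**
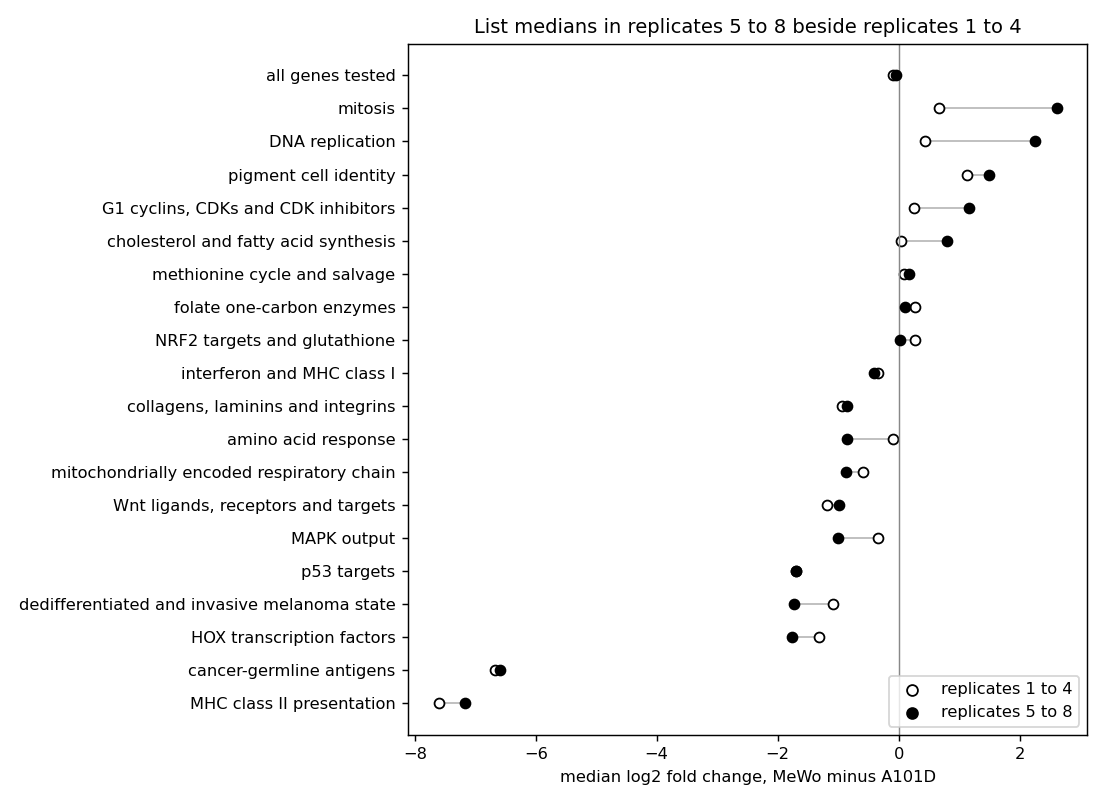
Median log2 fold change (MeWo minus A101D) of 19 gene lists and of all genes tested, in replicates 5 to 8 (filled) and replicates 1 to 4 (open). The medians of mitosis and DNA replication lie at 2.61 and 2.26 in replicates 5 to 8 and at 0.66 and 0.44 in replicates 1 to 4, while p53 targets lie at -1.69 in both.

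Side by side with replicates 1 to 4, where 15761 of 19374 genes (81.4%) were called by the same fit, most of the line differences were present in both sets. Among 10130 genes of at least 10 CPM tested in both, the lines did not overlap and had the same direction in both sets for 6992 (69.02%). Opposite directions without overlap were found for 655 (6.47%), of which 419 were higher in MeWo in replicates 5 to 8. The list medians, replicates 5 to 8 first, were -7.17 and -7.60 for MHC class II, -6.60 and -6.68 for germline antigens, -0.86 and -0.93 for matrix and -1.69 in both for p53 targets. They were 2.61 and 0.66 for mitosis, 2.26 and 0.44 for replication, 1.17 and 0.25 for G1 control and 0.80 and 0.03 for sterol synthesis. For the amino acid response they were -0.86 and -0.10, for MAPK output -1.01 and -0.34, for the dedifferentiated state -1.73 and -1.09 and for HOX genes -1.76 and -1.31. The difference between the sets was not tested.

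The 5 opposite genes with the widest differences were CDC45, the histone genes H4C4 and H2BC14, HJURP and CITED2. CDC45 had 11.9, 12.04, 13.1 and 14.8 CPM in A101D and 36.1, 32.0, 35.4 and 33.8 CPM in MeWo, and in replicates 1 to 4 it lay between 100.7 and 111 CPM in A101D and between 38.8 and 40.3 in MeWo. MeWo was thus near the same level in both sets, and A101D was not. H4C4 and H2BC14 had log2 fold changes of 1.61 and 2.24 here and of -1.27 and -1.10 in replicates 1 to 4. These histone genes have near-identical copies, so their counts are uncertain. CITED2, a transcriptional coregulator, showed the reverse, at 82.4 ± 11.3 against 40.4 ± 1.23 CPM here and at 13.4 to 16.1 against 34.7 to 37.8 CPM in replicates 1 to 4.

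**Figure D5:**
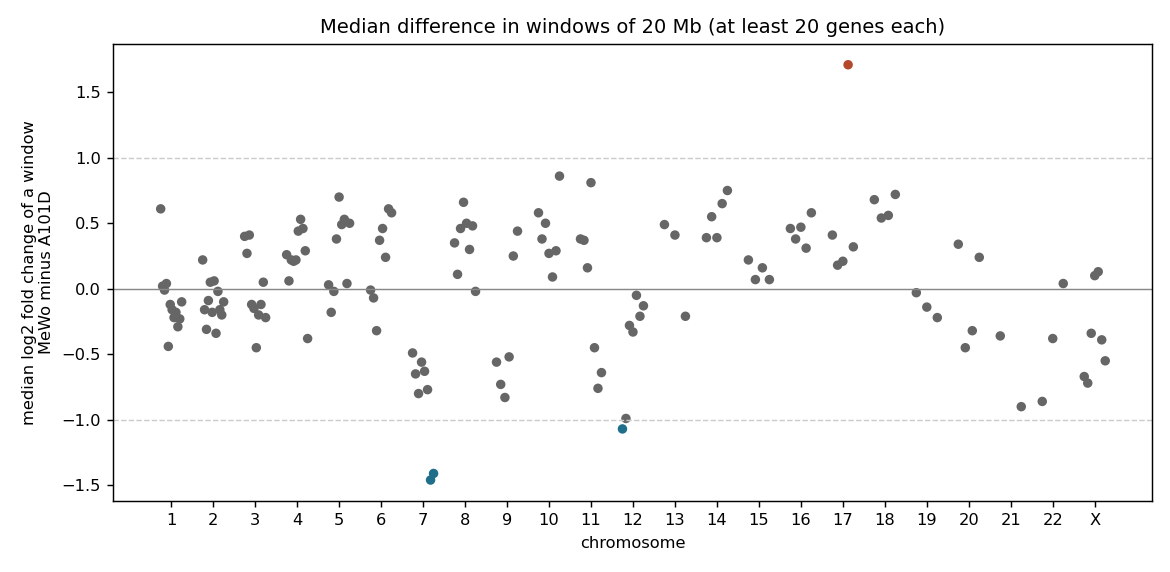
Median log2 fold change (MeWo minus A101D, replicates 5 to 8) of protein-coding genes of at least 5 CPM in windows of 20 Mb that hold at least 20 such genes, by chromosome. Each point is a window, ordered by position within its chromosome, in red above 1 and in blue below -1. One window of chromosome 17 stands at 1.71 and 2 windows of chromosome 7 and 1 of chromosome 12 lie below -1.

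Along the chromosomes, 110 of 149 windows of 20 Mb had a median log2 fold change within 0.5 of 0, and 4 had one over 1 in size. On chromosome 17 from 60 to 80 Mb, 122 of 130 genes were above 0 (93.8%), with a median of 1.71, and 1.5 in replicates 1 to 4. SLC16A6, SPHK1, TK1, BIRC5 and AXIN2 lie in this window. On chromosome 7, the windows from 120 to 140 Mb and from 140 to 160 Mb had medians of -1.46 (69 genes) and -1.41 (68 genes), and -1.45 and -1.42 in replicates 1 to 4. On chromosome 12 from 0 to 20 Mb the median was -1.07 over 94 genes. Named genes lie in the low windows too, such as ZBED10P in the chromosome 7 window from 140 to 160 Mb. Each window's genes share a stretch of chromosome and are not independent, and gene copy number was not measured.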

How the data were processed

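RNA was measured by stranded total RNA sequencing in 16 libraries, 8 of them used here. Per the submitters' processing notes, Trimmomatic 0.39-1, STAR 2.7.1a, featureCounts 2.0.0 and GRCh38 were used. Neither the annotation release nor how strand was handled in counting is given in these sources. The authors deposited raw read counts per Ensembl gene, with the identifier and the count together in each cell. These were split, and 0 per-sample columns were left out.

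A gene was tested with at least 0.2902 CPM in at least 4 of the 8 libraries and at least 15 counts in all. The libraries of a single line were enough to pass. limma 3.58.1 (R 4.3.3) with voom weights, TMM factors (trims of 30% and 5%) and robust moderation gave log2 fold changes, standard errors and Benjamini-Hochberg adjusted p-values over all genes tested, and a call means an adjusted p under 0.05. Because the cells were combined, limma stood in for a count model. Printed CPM use 1 scaling over all 16 libraries. TPM, positions and overlaps use GENCODE v29. A ratio or bound is given where a line has few counts in all, with a floor of 3 counts over the line. The procedure was tested on simulated data.

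Members and gene lists were chosen with earlier results of these data known. Genes were named by 5 rules: the 8 largest differences each way among protein-coding genes of at least 10 CPM, the 6 largest each way where both lines had at least 20 CPM, members and exceptions of the lists, a set kept whatever its values, and up to 5 opposite to replicates 1 to 4. EZH2, MYBL2, KDR, LUM and the neighbours of MTAP were chosen after their values were seen. Alternatives were other scalings, filters, thresholds and models, and leaving out each library. Some list members are not reported here by name.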

Additional observations from a re-analysis of the deposited data

Results flagged for a closer look

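Among 354 groups of 4 libraries, 1 library stood far from the other 3 in 15 (by the gap test of Dixon), where chance gives 17.7. A101D replicate 8 was the highest for AXIN2 (2.426 CPM), KLHL9 (71.7 CPM), LAMB1 (1106 CPM) and PAGE5 (103.8 CPM). It was the lowest for GDF15 (2503 CPM), MDM2 (703.9 CPM) and the score of the MAPK list (0.570). A101D replicate 5 was the highest for TYMS (10.6 CPM) and the lowest for TYR (1.382 CPM), and A101D replicate 7 was the highest for IFI27 (0.3722 CPM). MeWo replicate 5 was the highest for CDKN2B (18.61 CPM), HLA-DRA (1.362 CPM) and LEF1 (57.8 CPM), MeWo replicate 6 the highest for SPRED3 (0.8583 CPM) and MeWo replicate 8 the lowest for CHAC1 (31.91 CPM). In each of these genes the lines did not overlap.

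For 11 named genes the lines did not overlap in either set of replicates and differed in opposite directions, and the difference between the sets was not tested. Higher in MeWo in replicates 5 to 8 and lower in replicates 1 to 4 (log2 fold changes in that order) were CDC45 (1.40 and -1.44), H2BC14 (2.24 and -1.10), H4C4 (1.61 and -1.27), HJURP (1.40 and -1.06), MYBL2 (1.66 and -0.91), EZH2 (0.62 and -0.97) and SREBF2 (0.80 and -0.26). Lower in MeWo in replicates 5 to 8 and higher in replicates 1 to 4 were CITED2 (-1.02 and 1.28), TRIB3 (-0.87 and 0.84), TXNRD1 (-0.52 and 0.39) and DDIT3 (-0.41 and 0.70).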

How the results depend on the processing

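Of 3361 values for 177 named genes under 19 alternatives, 3271 kept their direction and side of the threshold, 83 kept their direction and lost the call (42 of them when changes were tested against 2-fold) and 7 reversed. All 7 reversed with upper-quartile factors over all genes with a count: ASNS 0.19, B2M 0.28, FASN 0.12, MT-ND6 0.21, MTR 0.21, RFX5 0.08 and SHMT2 0.15. With those factors 717 calls changed direction, and 0 did in any other alternative. They gave 4 folate genes lower in MeWo, 11 amino acid response, 2 MHC class II, 2 p53 and 1 mitochondrial genes higher and 3 sterol genes lower. Total counts, and upper-quartile factors over the genes tested (added after seeing the data), each gave 3 amino acid response genes higher. Without the filter on low counts 15841 genes were over 2-fold, with more genes tested. The named genes include MAT2A, which chose the libraries and whose call is no result.

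Tested against 2-fold, which asks for a larger change, 7046 genes were called, 2730 higher and 4316 lower. Genes higher in MeWo were then 11 of G1 control, 7 of methionine, 4 of folate, 0 of the amino acid response, 5 of the dedifferentiated list, 3 of matrix, 0 of MHC class II, 3 of interferon, 0 of MAPK output, 9 of sterol, 5 of NRF2, 0 of p53, 2 of Wnt, 1 of germline and 2 of HOX. Lower were 2 of folate, 15 of the amino acid response, 3 of pigment, 13 of matrix, 11 of interferon, 8 of MAPK output, 1 of sterol, 4 of NRF2, 11 of Wnt and 0 mitochondrial genes.

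Leaving out each library gave 17445 to 17853 calls, 8212 to 8402 higher and 9102 to 9509 lower, 9216 to 9475 over 2-fold and 16974 to 17380 without overlap. The replicate block gave 17244 calls (8205 higher, 9039 lower) and lost B2M. Same-numbered libraries had correlations of -0.0637, 0.0159, -0.0173 and 0.0299 in their deviations from the line mean, so no pairing by number was visible. Such values cannot show whether same-numbered libraries were handled together.

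Depth limits genes with few counts, whose ratios have wide intervals. MeWo and A101D are 1 line each, and the medium of each library is not known.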
